A study of Arabidopsis thaliana with 12 samples.

Results

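The loci described here are the transcripts of the chloroplast (plastid) genome of Arabidopsis thaliana, taken as every row of the deposited table whose locus identifier starts with ATCG. There were 133 such rows among 32833 in all. Leaves of wild-type Col-0 plants 30 days old were studied, raised on peat pellets at 23 °C in a cycle with 12 h of light at 50 µmol m-2 s-1. The 4 groups were an unstressed control, high light at 600 µmol m-2 s-1, heat at 42 °C, and high light together with heat, called the combination here, each stress lasting 7 h. The labels give neither the light level during heat alone nor the temperature during high light alone. Each group had 3 libraries, numbered 1 to 3 by the labels. The labels do not say whether these came from separate plants or pools, so p-values rest on the spread of the libraries alone, which may be technical.

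The plastid genome encodes core proteins of the photosystems, the cytochrome b6f complex, the ATP synthase and an NADH dehydrogenase-like complex, the large subunit of Rubisco, subunits of a bacterial-type RNA polymerase, ribosomal proteins, and ribosomal and transfer RNAs. Its genes are transcribed by that plastid-encoded polymerase, which needs nuclear-encoded sigma factors and associated proteins, and by nuclear-encoded phage-type polymerases. Many genes lie in clusters that are transcribed together and then cut. In plastids a poly(A) tail marks an RNA for decay, unlike the tail of a nuclear messenger RNA. These libraries were made after poly(A) selection, so the plastid reads are a selected remainder of plastid RNA and not a measure of its total amount.

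The table gives locus identifiers without gene symbols, and the reference annotation lists its 129 plastid genes (85 protein-coding, 37 transfer RNA and 7 ribosomal RNA genes) under other tags. Rows could therefore not be sorted by complex, and most are given by identifier. Notes in the reference annotation describe 6 of the 133 rows: ATCG00430, ATCG00530, ATCG00660, ATCG00670, ATCG00750 and ATCG01310. Of the 133 rows, 103 had a read in at least 1 library and 30 had none. The 79 rows that averaged 10 or more normalised counts over the 12 libraries were tested. Another 24 rows had reads but a lower mean, the highest being 9.86, against 10.3 for the lowest row tested. A mean of at least 10 was reached by 68 of the 79 in control, 67 under high light, 75 under heat and 78 in the combination, and 2 rows reached it in the combination alone.

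Library 2 of the combination stood apart from all others and was examined before any comparison. It held 69880 plastid reads, against 12578 and 8393 in combination libraries 1 and 3. Relative to the mean of those libraries, the 79 tested plastid rows had a median ratio of 4.59, from 1.33 for ATCG00220 to 17.1 for ATCG00065. Library 2 was above both other libraries in 77 of the 79 rows, ATCG00080 and ATCG00110 being the exceptions. The same ratio had a median of 1.91 over 39 tested mitochondrial rows and 0.998 over 19191 tested nuclear rows. The filter on the mean counted library 2 too. Without it, 74 of the 79 plastid rows reached a mean of 10, and ATCG00065 did not. Rows that passed only through library 2, and so were picked where it was high, remain in all counts of the 79 rows. Changes of plastid rows named in the combination are therefore given with library 2 and without it, and shares of plastid reads library by library. Recovered reads per library ranged from 29814116 to 36938786 over the 12 libraries. The authors' size factors were 1.05 to 1.53 in control, high light and heat but 0.535 to 0.605 in the combination.

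**Figure D1:**
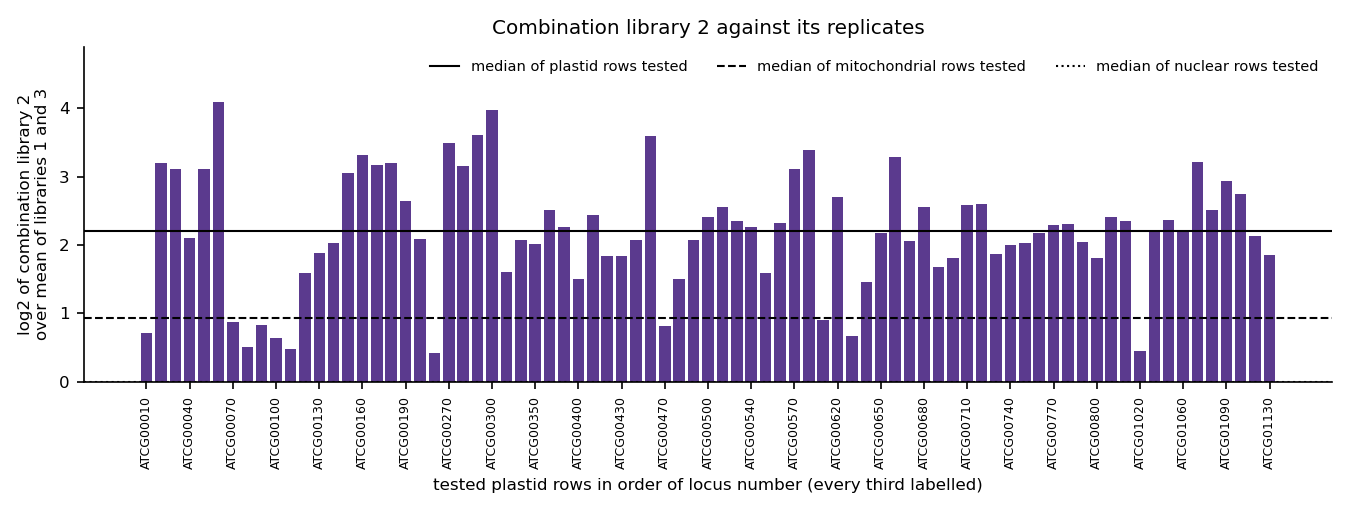
Log2 ratio of the normalised count in combination library 2 to the mean of combination libraries 1 and 3 (y axis) for each of the 79 tested plastid rows in order of locus number (x axis), with lines at the medians of plastid, mitochondrial and nuclear rows. The plastid rows spread around a ratio of 4.59, above the mitochondrial median of 1.91 and the nuclear median of 0.998.

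Plastid reads were a small share of every library, and every heat library held a larger share than every control library. The plastid share of all reads was 0.0277%, 0.0329% and 0.0230% in control libraries 1 to 3. In high light it was 0.0322%, 0.0262% and 0.0176%, within the range of control apart from library 3, which was lower. Heat gave 0.0531%, 0.0588% and 0.0490%. The combination gave 0.0422%, 0.212% and 0.0274%, so that library 3 lay among the controls and library 2 far above all others. The Wilson 95% interval of the share in library 2 was 0.211% to 0.214%, which covers counting error only.

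The mean share was 0.0279% ± 0.00496 (SD, n = 3) in control and 0.0536% ± 0.00492 (SD, n = 3) under heat, a ratio of 1.92 with no overlap. The exact two-sided permutation test gave p = 0.1, the smallest value that 3 against 3 libraries allow, and 0.5 after adjustment over the 5 comparisons of this share. High light, at 0.0253% ± 0.00734 (SD, n = 3), overlapped with control (exact p = 0.6, adjusted 0.75). The combination, at 0.0940% ± 0.103 (SD, n = 3), also overlapped with control (exact p = 0.3, adjusted 0.5). Without library 2 it exceeded control by 0.00692 percentage points (exact p = 0.6) and lay below heat by -0.0188 (exact p = 0.2), where with library 2 it lay above heat by 0.0404 (exact p = 1).

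The mitochondrial share of reads also moved with heat. It was 0.00500% to 0.0135% in control, 0.00596% to 0.00666% under high light, 0.0756% to 0.120% under heat, and 0.109%, 0.115% and 0.0577% in combination libraries 1 to 3. Heat was 12.3 times control with no overlap (exact p = 0.1). The share held by 19 genes for heat shock proteins, chaperones made under heat, was at most 0.0535% in control and high light libraries, 0.964% to 7.91% under heat, and 12.8%, 19.7% and 15.3% in combination libraries 1 to 3. With those genes left out of the denominator, the heat share remained above control without overlap (exact p = 0.1). That outcome was fixed, since leaving them out raises a share most where they held most reads. The parts of these genes and of the mitochondrial shift in the plastid share were not tested.

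**Figure D2:**
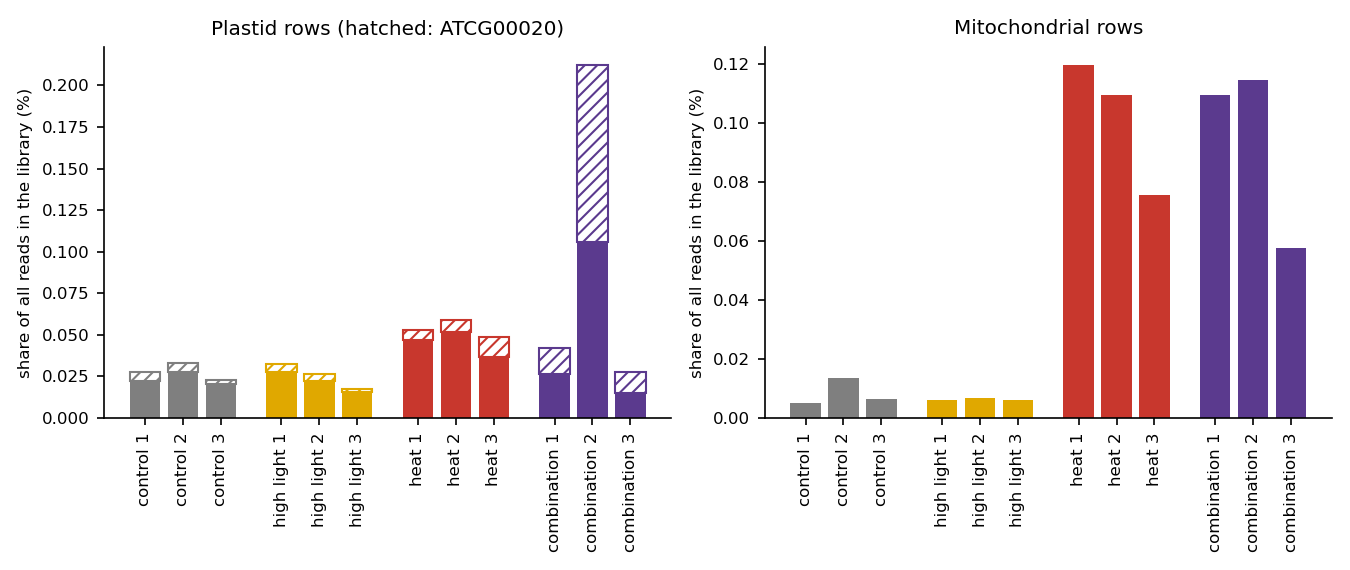
Share of all reads (percent, y axis) on plastid rows (left, hatched part ATCG00020) and on mitochondrial rows (right) in each of the 12 libraries (x axis). The heat libraries hold 0.0490% to 0.0588% plastid reads, above the controls, and combination library 2 holds 0.212%.

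Leaf identity was checked with marker genes. The summed normalised count of 3 leaf mesophyll markers was 909135 to 1314280 in control, 646002 to 816743 under high light, 371018 to 684266 under heat and 1221650 to 1449690 in the combination. These markers did not move together: under high light 1 was called higher and 1 lower than control, with log2 changes from -2.60 to 1.14. Summed guard cell markers were 773 to 961 in control, 1155 to 1278 with high light, 647 to 825 with heat and 203 to 364 in the combination. The phloem marker was 3642 to 4405 in control, 2575 to 2695 with high light, 1541 to 4732 with heat and 1211 to 1528 in the combination. The epidermis marker was 3129 to 3560, 1776 to 3087, 2001 to 2184 and 1771 to 3789 in the same order of groups. The flower marker, whose gene is silent in leaves, was 3.94 to 8.44, 7.08 to 14.1, 4.49 to 14.3 and 22.4 to 28.4 in that order. Their part in the results below was not tested. In whole leaves, fewer cells of a type and less RNA per cell cannot be told apart.

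ATCG00020 had the most plastid reads of all rows. It made up 19.2%, 16.2% and 12.3% of plastid reads in control, 14.7%, 14.8% and 10.4% under high light, and 11.9%, 12.5% and 25.1% under heat. In the combination it made up 37.5%, 50.2% and 46.2%, each above every library of the other groups. The combination mean of 44.6% ± 6.46 (SD, n = 3) was 2.81 times the control mean of 15.9% ± 3.45 (SD, n = 3), with an exact permutation p = 0.1 and 0.167 after adjustment over 5 comparisons. This share does not depend on how libraries are scaled.

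Changes of single rows were tested with limma on log2(normalised count + 1), with Benjamini-Hochberg adjustment over 19309 tested genes of all genomes and a threshold of 0.05. A log2 change on this scale understates the change of low rows. The comparisons of high light, heat and the combination with control share the same 3 control libraries, and those of the combination share its 3 libraries.

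High light against control gave no plastid row past the threshold, where 34.7% of all genes tested passed. Unadjusted p under 0.05 was reached by 2 rows, ATCG00070 at -0.94 and ATCG00090 at -1.04. On recovered reads, edgeR and DESeq2 each called 0 rows, where they called 35.5% and 39.4% of all genes, with 1 row at an unadjusted p under 0.05 by each tool. The median log2 change of the 79 rows was 0.01, beside -0.03 over all genes. With plastid rows scaled to each library's plastid total, which asks for changes in share among plastid reads, 2 rows were higher and 1 lower. These fits drew the spread of each row from all 12 libraries, combination library 2 included. With only the control and high light libraries in the limma fit, 2 rows were higher and 6 lower, where 53.3% of all genes passed.

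Heat against control gave 17 plastid rows higher and 4 lower. These were 26.6% of the 79 rows, less than the 49.3% of all genes that passed, with 24.6% of all genes higher and 24.8% lower. The median log2 change was 0.53 over plastid rows, 57 of 79 being above 0, and 0.00 over all genes. None of the 21 rows overlapped between heat and control libraries. They were called on the same values, so this adds no support, and no such share over all genes is given here. Scaled to plastid totals, 13 rows were higher and 23 lower, where 49.5% of all genes passed, and these included 13 of the 17 rows higher and all 4 lower under the deposited scaling.

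The largest rises under heat were those of ATCG00070 and ATCG00100. ATCG00070 stood at 42.2, 28.4 and 39.3 normalised counts in control libraries 1 to 3, 24.3, 16.1 and 15.9 under high light, 804, 1685 and 913 under heat, and 111, 149 and 51.9 in the combination. The heat libraries were far above all others, and the combination libraries lay between heat and control. The log2 change was 4.86 ± 0.39 (SE; adjusted p = 4.43e-06) under heat and 1.37 ± 0.39 (SE; adjusted p = 0.00887) in the combination. The latter was 1.05 without combination library 2, 0.21 with scaling to library totals and that library left out, and -0.72 with scaling to plastid totals. ATCG00100 stood at 20.3, 21.3 and 20.5 in control, 495, 624 and 361 under heat, and 129, 136 and 46.8 in the combination. Its log2 change under heat was 4.48 ± 0.39 (SE; adjusted p = 7.09e-06).

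These rows belong to a run of 7 consecutive locus numbers, ATCG00070 to ATCG00130, that all rose under heat, by 1.62 to 4.86 on the log2 scale. With plastid totals as scaling, 6 of the 7 were higher. Together they held 5.63%, 5.0% and 5.32% of plastid reads in control and 4.34%, 5.12% and 5.03% under high light. Their share was 32.6%, 36.1% and 22.8% under heat, but 3.65%, 0.926% and 2.12% in the combination. The rise in share was thus seen in every heat library and in no combination library. A share also falls when other rows gain reads. In normalised counts, 2 of the 7 rows were called higher in the combination than in control. The log2 changes of the 7 ran from -0.18 to 2.13 there, with library 2 included. The order is that of the identifiers, and the edges of each run were set after the calls were seen, so that runs are described without a test.

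ATCG00080, in the same run, had the run's largest log2 difference between heat alone and heat with high light. It stood at 54.0, 24.4 and 35.9 in control, 28.2, 26.8 and 23.0 under high light, 845, 1028 and 590.5 under heat, and 69.4, 57.9 and 11.7 in the combination. Its log2 change was 4.43 ± 0.53 (SE; adjusted p = 4.76e-05) under heat and 0.01 ± 0.53 (SE; adjusted p = 0.988) in the combination, or -0.32 without library 2. The combination libraries overlapped with control.

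ATCG00190 gave the largest fall under heat. It stood at 480.4, 471 and 493 in control, 903, 505 and 723 under high light, 56.3, 34.1 and 35.3 under heat, and 124, 628 and 77.0 in the combination. All heat libraries were below all others, while combination library 2 lay above control and libraries 1 and 3 below it. The log2 change under heat was -3.53 ± 0.57 (SE; adjusted p = 0.000334). In the combination it was -1.40 (adjusted p = 0.0484), groups overlapped, the value was -2.29 without library 2, and edgeR gave -0.89 (adjusted p = 0.187). The rows ATCG00160 to ATCG00190 together held 8.09% to 9.45% of plastid reads in control, 11% to 15.6% under high light, 0.530% to 1.00% under heat, and 1.31%, 1.41% and 1.37% in combination libraries 1 to 3. Of these 4 rows only ATCG00190 was called lower in heat or the combination, and combination log2 changes ran from -1.40 to 1.34. Their summed normalised count was 624 to 719 in control and 273, 1842 and 192 in combination libraries 1 to 3.

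ATCG00790 fell under heat too. It stood at 102, 116 and 103 in control, 129, 104 and 107 under high light, 39.9, 27.8 and 15.3 under heat, and 21.5, 61.7 and 8.37 in the combination. All heat and combination libraries were below all control and high light libraries. The log2 change was -2.01 ± 0.54 (SE; adjusted p = 0.00860) under heat and -2.19 ± 0.54 (SE; adjusted p = 0.00396) in the combination, or -2.89 without library 2. ATCG00780 to ATCG00810 held 3.52% to 4.67% of plastid reads in control, 4.12% to 6.29% under high light, 0.259% to 1.11% under heat, and 0.358%, 0.203% and 0.334% in combination libraries 1 to 3. Of these 4 rows, 2 were called lower under heat and 3 in the combination. Their summed normalised count was 282 to 311 in control and 74.4, 265 and 46.8 in combination libraries 1 to 3.

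The combination against control gave 29 rows higher and 8 lower, 46.8% of the 79, where 59.4% of all genes passed, 29.8% higher and 29.7% lower. Of these rows, 26 of the 29 higher and 4 of the 8 lower did not overlap between the groups. As in heat, they were called on the same values, so this adds no support, and no such share over all genes is given. Without combination library 2, 18 were higher and 12 lower, where 53.7% of all genes passed, and those included 18 of the 29 and all 8. The median log2 change was 0.84 with library 2 and 0.15 without it, beside -0.02 over all genes. The split of directions depended on scaling: library totals gave 14 higher and 13 lower, with the median of all genes moved by -0.95 and 71.7% of all genes passing, 9.46% higher and 62.2% lower. Plastid totals gave 9 higher and 41 lower, where 59.5% of all genes passed. Without library 2, library totals gave 9 and 24 (65.3% of all genes) and plastid totals 9 and 37 (53.8% of all genes). ATCG00270, ATCG00290, ATCG00020, ATCG01110, ATCG00790 and ATCG00530, described next, kept their direction in each of these fits.

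The largest rises were those of ATCG00270 and ATCG00290, which lie in a run of 4 rows, ATCG00270 to ATCG00300. ATCG00270 stood at 105, 119 and 99.9 in control, 218, 146 and 161 under high light, 239.6, 587 and 905 under heat, and 2134, 19610.5 and 1353 in the combination. All combination libraries were above all heat libraries, which were above all others. The log2 change was 5.15 ± 0.76 (SE; adjusted p = 0.000111), or 3.97 without library 2. ATCG00290 stood at 5.07, 11.8 and 3.42 in control and 61.2, 777 and 66.9 in the combination, a log2 change of 4.41 ± 0.87 (SE; adjusted p = 0.000879), or 3.21 without library 2. All 4 rows of the run were called, at 4.06 to 5.15 with library 2 and 2.87 to 3.97 without it, and all 4 were also called with library totals or plastid totals as scaling.

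This run held 4.0%, 5.14% and 4.35% of plastid reads in control and 6.94%, 5.91% and 6.55% under high light. Its share was 4.98%, 8.64% and 14.2% under heat and 20.6%, 28.5% and 21.5% in the combination. Every combination library was above every library of the other groups in this share, which does not depend on library scaling. In heat against control, ATCG00270 (2.22 ± 0.76 SE; adjusted p = 0.0281) and ATCG00300 (2.94 ± 0.89 SE; adjusted p = 0.0154) were called, and ATCG00280 and ATCG00290 were not.

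**Figure D3:**
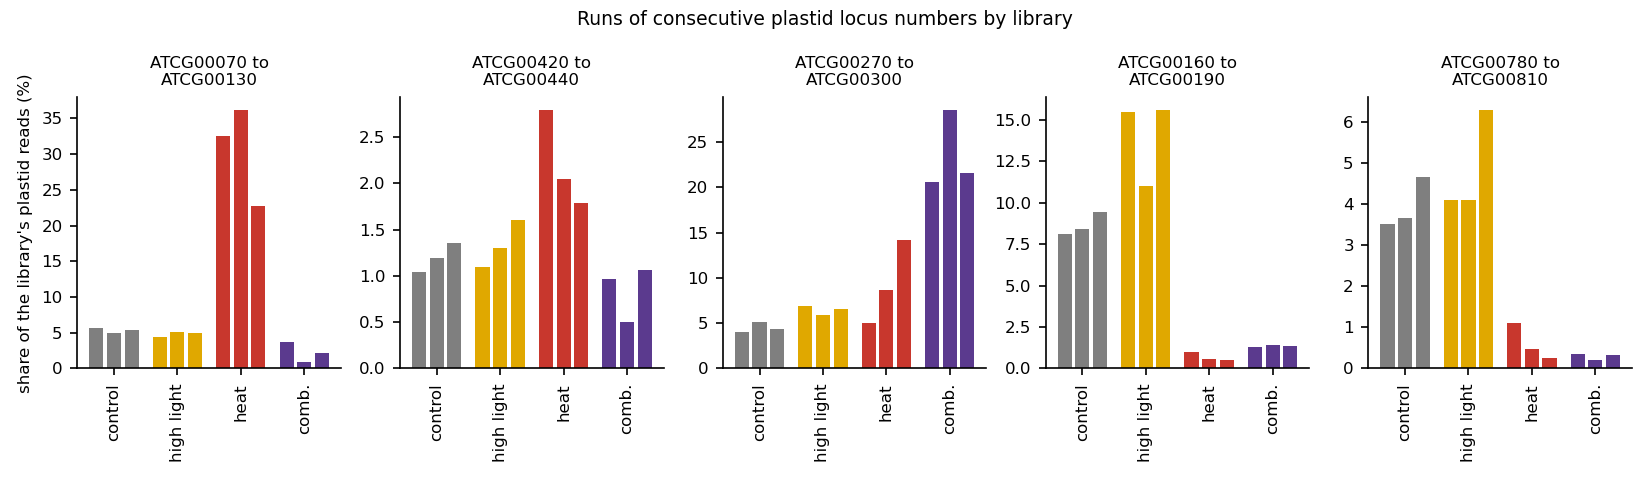
Share of plastid reads (percent, y axis) held by 5 runs of consecutive locus numbers in each of the 12 libraries (x axis). ATCG00070 to ATCG00130 hold 22.8% to 36.1% under heat, and ATCG00270 to ATCG00300 hold 20.6% to 28.5% in the combination.

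ATCG00020 was also highest in the combination in its normalised counts. It stood at 1534, 1379 and 811 in control, 1353, 1091 and 546 under high light, 1529, 2335 and 4069 under heat, and 7802, 65477 and 6481 in the combination. Heat overlapped with control (log2 change 1.03 ± 0.71 SE; adjusted p = 0.247), and the combination libraries were above all others. Its log2 change in the combination was 3.64 ± 0.71 (SE; adjusted p = 0.000808), or 2.57 without library 2 and 1.5 with plastid totals as scaling. ATCG01110, at 13.5, 10.2 and 5.12 in control and 81.0, 314 and 61.9 in the combination, rose by 3.56 ± 0.65 (SE; adjusted p = 0.000522), or 2.85 without library 2.

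ATCG00790, given above, was the largest fall in the combination, and ATCG00530 was next. The reference notes describe ATCG00530 as a CemA-like proton extrusion protein. It stood at 181, 116 and 190.5 in control, 68.1, 59.7 and 117 under high light, 72.0, 72.8 and 62.0 under heat, and 31.4, 127 and 18.4 in the combination. Libraries 1 and 3 of the combination were below all others, and library 2 lay within control. Its log2 change was -1.89 ± 0.54 (SE; adjusted p = 0.00916), or -2.67 without library 2, and -1.19 under heat (adjusted p = 0.0827).

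**Figure D4:**
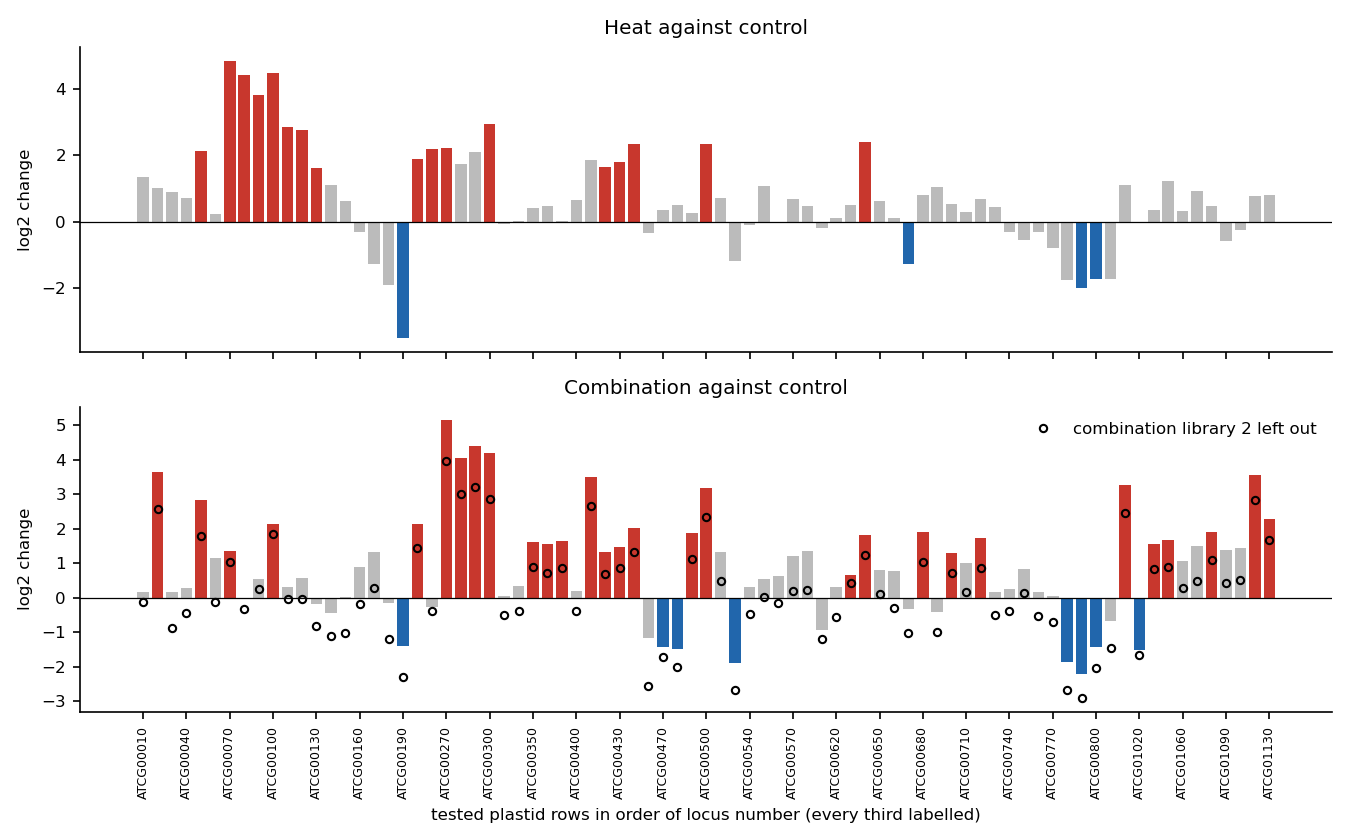
Log2 change (y axis) of the 79 tested plastid rows in order of locus number (x axis) for heat and for the combination, each against control. Red rows were higher and blue lower past the threshold, grey rows did not pass, and open circles leave combination library 2 out. The run ATCG00070 to ATCG00130 stands up to 4.86 under heat and ATCG00270 to ATCG00300 up to 5.15 in the combination.

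Among the other described rows, ATCG00430 was called higher in both heat and the combination. The notes name it photosystem II reaction center protein G, a name first given to a protein now known as a subunit of the NADH dehydrogenase-like complex. It stood at 43.9, 47.3 and 35.9 in control, 45.4, 39.8 and 42.5 under high light, 152, 177 and 126 under heat, and 90.9, 278 and 65.2 in the combination. Heat and combination libraries were all above control and high light. The log2 change was 1.81 ± 0.42 (SE; adjusted p = 0.00343) under heat and 1.47 ± 0.42 (SE; adjusted p = 0.00870) in the combination, the latter 0.86 without library 2 and -0.64 with plastid totals as scaling.

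Its neighbour in number ATCG00420 shares sequence with a nuclear pseudogene in the reference notes, which has no row in the table, so its values are uncertain. It stood at 26.2, 35.5 and 38.4 in control, 119.8, 110.5 and 90.6 under heat, and 67.8, 199.9 and 43.5 in the combination. The log2 change was 1.66 ± 0.44 (SE; adjusted p = 0.00820) under heat and 1.33 ± 0.44 (SE; adjusted p = 0.0211) in the combination. The latter was 0.71 (adjusted p = 0.0794) without combination library 2, its call was also lost without control library 1, and it was -0.77 with plastid totals as scaling.

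ATCG00670 is described as the plastid-encoded ClpP, the proteolytic subunit of the stromal Clp protease. It stood at 106, 128 and 148 in control, 74.4, 89.5 and 77.9 under high light, 43.9, 61.1 and 50.6 under heat, and 77.7, 263 and 48.5 in the combination. All heat libraries were below all control and high light libraries, and the combination spread across both. Its fall under heat, -1.28 ± 0.46 (SE; adjusted p = 0.0352), was lost when any 1 of the 6 heat and control libraries was left out (adjusted p 0.0557 to 0.103). In the combination the log2 change was -0.33 (adjusted p = 0.553), and -1.03 (adjusted p = 0.00972) without library 2.

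The notes describe ATCG00660 and ATCG00750 as ribosomal proteins L20 and S11, of the large and small plastid ribosomal subunits. Neither was called under heat (log2 changes 0.11 and -0.56; adjusted p = 0.912 and 0.449) or in the combination (0.78 and 0.84; adjusted p = 0.383 and 0.230). ATCG00660 stood at 10.98, 22.1 and 11.1 in control and 14.9, 114 and 8.37 in the combination, so that library 2 alone stood above control. Without library 2 the values were -0.29 for ATCG00660 and 0.15 for ATCG00750. ATCG01310, described as ribosomal protein L2, had no read in any library, and a count of 0 allows up to 3 reads per library.

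Long runs of rows had almost no reads. The 19 rows from ATCG00830 to ATCG01000 had 11 reads over all 12 libraries together, 15 of the rows having none. The 18 rows from ATCG01140 to ATCG01310 had 29 reads, 15 rows having none. How reads that align to more than 1 place were handled is not given in the sources used here. No row of these runs was tested.

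The combination against high light, which sets heat against no heat under high light, gave 29 rows higher and 7 lower, where 57.4% of all genes passed, 28.1% higher and 29.3% lower. Without library 2 there were 20 higher and 11 lower (52.1% of all genes), with library totals as scaling 16 and 10 (71.1% of all genes), and with plastid totals 6 and 46 (57.5% of all genes). ATCG00290 (4.94 ± 0.87 SE; adjusted p = 0.000406) and ATCG00270 (4.47 ± 0.76 SE; adjusted p = 0.000319) were the largest rises, at 3.75 and 3.29 without library 2. ATCG00790 (-2.27 ± 0.54 SE; adjusted p = 0.00331) was the largest fall, followed by ATCG00780 (-2.08 ± 0.70 SE; adjusted p = 0.0215), at -2.97 and -2.91 without library 2. ATCG00780 stood at 112, 85.7 and 60.2 under high light and 19.8, 61.7 and 5.02 in the combination, with library 2 inside the high light range. Its call was lost without combination library 3, high light library 1 or high light library 2.

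The combination against heat, which adds high light to heat, gave 13 rows higher and 13 lower, where 54.9% of all genes passed, 27.9% higher and 27% lower. Without library 2 there were 5 higher and 21 lower (47% of all genes), with library totals as scaling 3 and 22 (65.6% of all genes), and with plastid totals 7 and 29 (55% of all genes). The majority went the other way in count tests on recovered reads, where edgeR gave 24 higher and 13 lower (54.2% of all genes) and DESeq2 26 and 13 (56.3% of all genes). Without combination library 3, limma gave 23 higher and 11 lower (50.9% of all genes). The largest falls were ATCG00080 (-4.42 ± 0.53 SE; adjusted p = 6.69e-05) and ATCG00070 (-3.48 ± 0.39 SE; adjusted p = 5.03e-05), at -4.74 and -3.81 without library 2. All 7 rows of the run ATCG00070 to ATCG00130 were lower, by -4.42 to -1.80, and all 7 were also called lower without library 2 and with library totals or plastid totals as scaling. The largest rises were ATCG00270 (2.93 ± 0.76 SE; adjusted p = 0.00599) and ATCG01110 (2.77 ± 0.65 SE; adjusted p = 0.00334), at 1.75 and 2.06 without library 2.

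The interaction of light and heat is the log2 change with heat under high light minus that without high light. It passed the threshold for 2 plastid rows upward and 8 downward, 12.7% of the 79, where 46.2% of all genes passed, 23% upward and 23.2% downward. Without library 2 it was 1 upward and 14 downward (41.3% of all genes), but without combination library 3 it was 12 upward and 7 downward (43.3% of all genes). Count tests on recovered reads gave 6 upward and 9 downward with edgeR (45.3% of all genes) and 13 upward and 9 downward with DESeq2 (48.6% of all genes). With the replicate number as a block it was 6 upward and 11 downward (45.1% of all genes). Library totals gave 0 upward and 14 downward (55% of all genes), and plastid totals 1 and 22 (46.4% of all genes). Rows ATCG00070 to ATCG00120 were among the 8, ATCG00080 at -3.95 ± 0.75 (SE; adjusted p = 0.00122) having the lowest value, or -4.27 without library 2. ATCG00220 followed at -2.76 ± 0.53 (SE; adjusted p = 0.00127), or -2.90 without library 2. It stood at 41.4, 17.3 and 35.9 in control, 31.3, 48.2 and 33.6 under high light, 204, 139 and 95.4 under heat, and 23.1, 29.9 and 21.7 in the combination, so that only heat stood apart. The upward rows were ATCG00020 at 2.97 ± 1.00 (SE; adjusted p = 0.0283) and ATCG01110 at 2.68 ± 0.92 (SE; adjusted p = 0.0306). Without combination library 2 these were 1.91 and 1.97. Leaving out 1 library moved ATCG00020 between 1.91 and 3.57 and ATCG01110 between 1.97 and 3.13, with adjusted p up to 0.0703 and 0.0763. ATCG00020 lost its call without control library 1 or 2, heat library 1 or 2, or high light library 3. ATCG01110 lost its call without control library 1 or 2, heat library 2, high light library 3 or combination library 2.

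Across the 12 libraries, each plastid row's log2 level was set against that of the sum of the other rows. The Pearson correlation had a median of 0.76 over the 79 rows, from -0.43 for ATCG01020 to 0.98 for ATCG00680. ATCG00790, ATCG00800 and ATCG00780 lay at -0.37, -0.35 and -0.23. The 66 pairs of tested rows with consecutive locus numbers had a median correlation of 0.83, and the other 3015 pairs 0.49. Rows share libraries, scaling and, where they lie in overlapping or jointly transcribed units, RNA molecules, so these values are descriptive.

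The nuclear genes for partner subunits of the plastid complexes were counted beside the plastid rows. Their counts stand beside the shares of all genes called: 18.1% higher and 16.6% lower with high light, 24.6% and 24.8% with heat, and 29.8% and 29.7% in the combination. With library totals as scaling the last became 9.46% higher and 62.2% lower. Of 13 genes for photosystem II proteins, 2 were higher and 10 lower under high light, 4 were lower under heat, and 7 were higher in the combination (medians -0.87, -0.41 and 0.71). With library totals as scaling, 0 were higher and 6 lower in the combination. PSB28, a photosystem II assembly protein, changed by -1.21 ± 0.28 (SE; adjusted p = 0.00350) under heat and 1.45 ± 0.28 (SE; adjusted p = 0.000758) in the combination. Of 12 photosystem I genes, all 12 were lower under high light (median log2 change -1.64) and 8 were lower under heat. In the combination 3 were higher, against 0 higher and 8 lower with library totals. PSAN, a lumenal subunit, fell by 1.57 ± 0.26 (SE; adjusted p = 0.000402) under heat.

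The interaction of light and heat was upward for 12 of the 13 photosystem II genes, with 1 downward, and for all 12 photosystem I genes (median 2.67). With library totals it was upward for 11 and 12, where 9.39% of all genes were upward. The plastid rows, whose all-member median interaction was 0.39 with library 2 and -0.46 without it, could not be split by photosystem for a direct comparison. Of 11 tested genes of the NADH dehydrogenase-like complex, 3 were higher and 2 lower under high light, 1 was higher and 3 lower under heat, and 6 were higher in the combination, led by NdhT (1.89 ± 0.17 SE; adjusted p = 2.77e-06), against 1 higher and 6 lower with library totals. Of the 4 genes for the Rubisco small subunit, near-identical copies whose reads may be split uncertainly, 3 were higher under high light, 2 higher and 1 lower under heat, and 3 higher in the combination, or 2 higher and 1 lower there with library totals. The cytochrome b6f list (2 genes) and the ATP synthase list (3 of 4 tested) gave at most 1 call each under heat or the combination. With library totals the ATP synthase list gave 2 lower under heat, where 24.9% of all genes were lower, and 3 of 3 lower in the combination, and the cytochrome b6f list 1 lower in the combination. The calls included ATPD, a subunit of the ATP synthase, at -1.25 ± 0.21 (SE; adjusted p = 0.000385) under heat.

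Genes for the plastid transcription machinery changed in several directions. The shares of all genes called that stand beside the partner lists above apply to the lists below too. Both phage-type polymerases, SCA3 of the plastid and AT5G15700, rose under high light and under heat. SCA3 stood at 6844 ± 923 (SD, n = 3) normalised counts under heat and 2092 ± 535 (SD, n = 3) in control, a log2 change of 1.73 ± 0.23 (SE; adjusted p = 8.23e-05). AT5G15700 stood at 1585 ± 327 and 449 ± 118 (SD, n = 3 each), a log2 change of 1.83 ± 0.37 (SE; adjusted p = 0.00145). In the combination SCA3 changed by 0.53 (adjusted p = 0.0595) and AT5G15700 by 0.95 (adjusted p = 0.0405), and with library totals these were -0.42 and -0.01. The call of AT5G15700 in the combination was lost without control library 1, control library 3 or combination library 1. The interaction was downward for both, also with library totals.

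Of 6 sigma factors, which guide the plastid-encoded polymerase to promoters, 1 was higher and 3 lower under heat, and 3 were higher and 1 lower in the combination, or 1 and 3 there with library totals. SIGE, the sigma factor known for its response to light and stress, stood at 11605 ± 1799 (SD, n = 3) in the combination and 284 ± 53.8 (SD, n = 3) in control. Its log2 change was 5.36 ± 0.76 (SE; adjusted p = 8.11e-05), or 4.40 with library totals. SIG4 changed by -1.53 ± 0.20 (SE; adjusted p = 4.20e-05) in the combination. Of 12 proteins associated with the plastid-encoded polymerase, 9 were higher under high light, 1 was higher and 4 lower under heat, and 2 were higher and 7 lower in the combination, or 0 and 11 there with library totals. PTAC12, one of them, changed by -1.16 ± 0.19 (SE; adjusted p = 0.000421) under heat and -1.08 ± 0.19 (SE; adjusted p = 0.000446) in the combination.

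Of 10 genes for plastid RNA processing, binding and decay, 4 were higher under high light. In heat 1 was higher and 2 lower, and in the combination likewise 1 and 2, against 0 and 8 with library totals. CP29, an RNA-binding protein, changed by -1.07 ± 0.24 (SE; adjusted p = 0.00271) under heat and -1.58 ± 0.24 (SE; adjusted p = 0.000123) in the combination. EMB2730, a ribonuclease that trims plastid RNA ends, rose by 0.91 ± 0.19 (SE; adjusted p = 0.00202) under heat. RIF10, the plastid polynucleotide phosphorylase that adds and removes RNA tails, changed by -0.66 ± 0.15 (SE; adjusted p = 0.00400) under heat and -0.25 (adjusted p = 0.181) in the combination. It was chosen outside the naming rule, after its values were seen, for its part in tailing.

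Without combination library 2, 26.8% of all genes were higher and 26.9% lower in the combination against control. Beside these shares, calls were 7 higher for photosystem II, 3 higher for photosystem I and 4 higher for the NADH dehydrogenase-like complex. Calls were 3 higher for Rubisco, and 0 for cytochrome b6f and for the ATP synthase. They were 3 higher and 1 lower for the sigma factors, 2 higher for the phage-type polymerases, 1 higher and 4 lower for the polymerase-associated proteins, and 1 higher and 2 lower for RNA processing. The log2 changes in the combination became 1.36 for PSB28, 1.85 for NdhT, 0.69 for SCA3, 1.22 for AT5G15700, 5.24 for SIGE, -1.51 for SIG4, -1.10 for PTAC12 and -1.49 for CP29.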

How the data were processed

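RNA of leaves was isolated with Trizol and column clean-up, and poly(A)-selected TruSeq libraries were made, per the labels' protocols. The submitters' processing notes name FastQC 0.11.7 for read quality, STAR 2.4.0.1 as the aligner, DESeq2 1.20.0, and the genome build TAIR10. The counting tool, annotation release, strand, treatment of reads with several alignments and filters are not given in the sources used here. The signal values as deposited equal whole counts of reads scaled by a size factor of each library, made by the authors. Dividing by the smallest step gave whole reads for 100% of non-zero values (tolerance 0.001), and these recovered reads were used for shares and for the count tests.

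Rows averaging 10 or more normalised counts (19309 of 32833) were tested with limma 3.58.1 in R 4.3.3 on log2(value + 1), with a trend, 1 mean per group and all 12 libraries in 1 fit. P-values were two-sided and adjusted by Benjamini-Hochberg over all genes tested, with a threshold of 0.05. On simulated data the fit recovered 99% of genes changed 4-fold and 47% of those changed 2-fold, among 19309 genes in high light against control. The simulation gave every gene the same setting of spread between libraries and held no library that stood apart. These rates therefore do not carry over to the plastid rows. Shares were compared by exact permutation (SciPy 1.17.1, Python 3.11.15), and figures were drawn with matplotlib 3.10.9. Alternatives were pseudocounts of 0.5 and 10, other filters, TMM, upper-quartile, plastid-total and library-total scaling, the count tests of edgeR 4.0.16 and of DESeq2 1.42.0, a replicate block, the compared groups alone, and each library left out. Library totals, and scalings combined with leaving out combination library 2, were added after seeing the data.

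Same-numbered libraries deviated together for control and high light (correlations 0.157 to 0.307) and for high light and heat (0.147 to 0.152), every correlation being over 0.1. The numbers may pair the libraries of those groups, but the labels do not say so and it was not tested. In the other 4 pairs of groups not all correlations were over 0.1. The interaction uses all 4 groups, and its value with the block stands beside it.

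Members and lists were chosen with earlier results of these data known. The planned naming rule used gene symbols, which could not be matched: 0 of 133 rows were found by locus in the reference, whose build, TAIR10.1, was used only for names and notes. It was reduced, after values were seen, to the 6 described rows, ATCG00420, ATCG00020 and the 2 largest rises and falls among called rows of each comparison. Of each nuclear list, examples are named from the 2 members with the largest called change in heat and in the combination. Rows named as an end of a range were chosen after their values were seen. No sequences are printed because none could be tied to these rows.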

Additional observations from a re-analysis of the deposited data

Results flagged for a closer look

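The change with heat under high light differed from that without high light for 10 plastid rows, by the interaction term of limma with adjusted p-values. These were 12.7% of the 79 rows tested, less than the 46.2% of all genes that passed. Of the rows described above, 4 had a negative term, their change with heat being lower under high light: ATCG00080 at -3.95, ATCG00220 at -2.76, ATCG00070 at -2.55 ± 0.55 (SE; adjusted p = 0.00267) and ATCG00100 at -2.30 ± 0.56 (SE; adjusted p = 0.00524). A positive term was found for ATCG00020 at 2.97 and ATCG01110 at 2.68, both of which missed the threshold when some single libraries were left out.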

How the results depend on the processing

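Counts of called plastid rows with 1 library left out ranged from 0 to 1 in high light (25.9% to 28.5% of all genes called), 16 to 25 in heat (39.6% to 52.5%), 27 to 39 in the combination (51.6% to 58.6%), 25 to 43 for the combination against high light (49.4% to 58%), 20 to 34 for the combination against heat (47% to 57.7%) and 5 to 19 for the interaction (38.5% to 51.6%). The counts with all libraries were 0, 21, 37, 36, 26 and 10. The interaction count was lowest without heat library 2, at 5, was 6 without control library 1, and was highest without combination library 3. With only the groups compared, counts were 8 in high light and 32 in heat, where 53.3% and 49.5% of all genes were called. With plastid totals as scaling they were 3 in high light (34.7%), 36 in heat (49.5%) and 23 for the interaction (46.4%), or 19 (41.3%) for the interaction without combination library 2. The interaction count was 22 with DESeq2 (48.6%), 21 with library totals and combination library 2 left out (49.3%), and 17 with the replicate block (45.1%). The block gave 0 calls in high light (33.6%), where the numbers may pair the libraries. In the comparisons of other groups it gave 29 in heat (48.5%), 36 in the combination (58.4%), 42 against high light (56.6%) and 29 against heat (54.1%). Same-number correlations were 0.00104 to 0.0680 for control and heat, 0.0567 to 0.107 for control and the combination, -0.0736 to 0.0465 for heat and the combination, and -0.0757 to 0.00440 for high light and the combination.

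The difference in plastid share kept its direction with 1 library left out in heat (0.0231 to 0.0282 percentage points), in the combination (0.00692 to 0.0994) and for the combination against high light (0.00947 to 0.102). It ranged from -0.00598 to 0.00132 for high light, turning without high light library 3, and from -0.0188 to 0.0737 for the combination against heat, turning without combination library 2. Among single rows, 410 of the results with other settings kept direction and call, 17 turned direction, 9 gained and 14 lost the call. ATCG00020 in heat was -0.0093 with plastid totals. In the combination, with library totals and library 2 left out, with plastid totals, and with plastid totals and library 2 left out, ATCG00420 was -0.13, -0.77 and -0.43, ATCG00660 -1.07, -1.28 and -1.41, and ATCG00750 -0.67, -1.25 and -0.98. ATCG00430 was -0.64 and -0.28 with plastid totals, with and without library 2. With library totals ATCG00660 was -0.11 and ATCG00750 -0.084, and edgeR without library 2 gave -0.42 for ATCG00660. ATCG00670 was 0.025 with DESeq2. With 1 library left out, ATCG00660 ranged from -0.29 to 1.51 in the combination and from -0.11 to 0.45 in heat, and ATCG00670 from -1.03 to 0.18 in the combination. ATCG00660 in heat was -0.88 with plastid totals. The cause of these shifts was not tested. The alternatives of the share without ribosomal and transfer RNA rows, and without psbA, were not run because the rows could not be named. A share without ATCG00020 was added in their place: heat exceeded control by 0.0216 percentage points (exact permutation p = 0.1) and the combination by 0.0256 (exact permutation p = 0.8). Plastid reads per library were few, 5910 to 20780 outside combination library 2, which limits what low rows can show.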
